A study of Homo sapiens with 4 samples.

Results

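The genes described here encode desmosomes, the junctions that tie the keratin filaments of neighbouring epithelial cells together. Members were the lines of the deposited table whose symbol is DSC2, DSC3, DSG2, DSG3, DSP, PKP1, PKP2, PKP3, JUP or PERP. All 10 had a line, among 18840 genes in all. The cells were MCF10A, an immortalised, non-tumorigenic human mammary epithelial line, and every culture stably carried a pBabe retroviral construct. The construct was empty (vector), or held GFP, miR-105 (a microRNA) or MYC, and each was measured in 1 poly(A) RNA-seq library. All cultures grew in the same DMEM/F12 medium, with hydrocortisone, cholera toxin, EGF, insulin and horse serum added, and the labels give neither a time after transduction nor whether a line was a clone or a pool. With 1 library per construct no difference below has a replicate check, and no test of a condition was possible.

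Desmosomes are built from cadherins of the desmocollin (DSC) and desmoglein (DSG) families, which meet in the space between cells. Inside the cell, plakoglobin (JUP) and the plakophilins (PKP) bind the cadherin tails, and desmoplakin (DSP) joins this plaque to keratin. DSC2 and DSG2 are the widely expressed cadherin pair of simple epithelia, DSC3 and DSG3 are typical of the basal layers of stratified epithelia, and DSC1 and DSG1 of their upper layers. PKP2 is found in simple epithelia and heart, PKP1 mainly in stratified epithelia, and PERP is a membrane protein of desmosomes and a known target of p63.

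All 4 desmosomal cadherins of the list lie in 1 cluster on chromosome 18, so their upstream sequences are shown to let the paralogs be compared. In GRCh38 (GENCODE 29), DSC3 spans chr18:30990008-31042815 and DSC2 spans chr18:31058840-31102522, both on the minus strand. DSG3 spans chr18:31447795-31478702 and DSG2 spans chr18:31498043-31549008, both on the plus strand. The bases below are from the RefSeq promoter windows of GRCh38.p14, which reach from 250 bases before to 50 after a gene's start. Each is written 5′ to 3′ on the gene's strand and ends before any annotated start of that gene, and capitals mark CACCTG or its reverse complement CAGGTG, the E-box bound by SNAI and ZEB repressors.
DSC2 (chr18:31102523-31102671): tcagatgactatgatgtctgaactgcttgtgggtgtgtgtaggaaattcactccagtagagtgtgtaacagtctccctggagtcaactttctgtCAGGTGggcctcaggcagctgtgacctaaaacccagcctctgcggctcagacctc
DSC3 (chr18:31042816-31042992): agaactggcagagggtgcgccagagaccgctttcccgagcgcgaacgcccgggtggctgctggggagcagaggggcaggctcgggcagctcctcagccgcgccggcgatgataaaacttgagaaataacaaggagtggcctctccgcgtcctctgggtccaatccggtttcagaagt
DSG2 (chr18:31497927-31498042): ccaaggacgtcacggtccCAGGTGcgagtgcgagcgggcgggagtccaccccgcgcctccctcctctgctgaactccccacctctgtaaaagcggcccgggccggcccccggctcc
DSG3 (chr18:31447491-31447740): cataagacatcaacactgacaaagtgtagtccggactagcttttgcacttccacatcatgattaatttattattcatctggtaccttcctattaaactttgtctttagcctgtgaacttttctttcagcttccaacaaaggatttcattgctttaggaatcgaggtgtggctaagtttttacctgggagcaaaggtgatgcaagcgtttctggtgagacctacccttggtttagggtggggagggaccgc

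The promoter windows of the paralogs differed in composition. DSG2 had a GC content of 76.7% with 36 CpG dinucleotides, and DSG3 had 44% with 6, against medians of 58.7% and 14 over all 35116 windows. DSC2 (60.7% and 15 CpG in 1 window, 65.7% and 22 CpG in its other window) and DSC3 (63.3% and 25 CpG) lay closer together. These values cover whole windows, of which only the bases before a start are printed above, for DSC2 from the window with 15 CpG. CACCTG, read on both strands, was found in the windows of DSG2 and DSP. It was in only 1 window each of DSC2 and JUP, whose other windows lacked it. None of the windows of DSC3, DSG3, PKP1 and PERP held it, while 20.6% of all windows did. The MYC E-box CACGTG was in none of the 10 windows of these 8 genes and in 7.26% of all windows. The grainyhead sequence AACCGGTT was also in none, against 0.134% of all windows. None of these 3 motifs overlaps another in sequence, and a match or its lack describes only the letters in this window.

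The microRNA of the construct is shown because its seed defines what it could pair with. Capitals mark the seed, bases 2 to 8 of the mature sequence, from RefSeq (MIR105-1, GRCh38.p14, chrX:152392265-152392287 and chrX:152392228-152392249, minus strand).
hsa-miR-105-5p: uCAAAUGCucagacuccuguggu
hsa-miR-105-3p: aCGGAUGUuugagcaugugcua
In the 3′ untranslated region of the GENCODE 29 transcript with the longest coding sequence, the 5p seed match GCATTTG occurred in 1 of the 10 members, DSC3, and in 14.3% of 11955 genes compared. The 3p match ACATCCG occurred in none of the members and in 1.24% of those genes. Neither share takes account of the length of the region, which ran from 339 bases in PKP3 to 9175 in DSC2 among the members. The DSC3 match, in capitals, begins at base 1782 of 4167 in that region.
DSC3 site: tgagtctgaagGCATTTGcaggatgagcc

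The vector library held 9138429 reads, GFP 14025115, miR-105 6859698 and MYC 9795159, after the deposited depth-adjusted values had been turned back into whole reads. Levels are in CPM (reads of a gene scaled to a common library size), scaled by TMM factors, and every interval is an exact 95% interval for counting error alone. MYC mRNA, read as a check of the labels, stood at 207 CPM in vector, 198 in GFP, 463 in miR-105 and 232 in MYC, so the label MYC does not name the library with most MYC transcript and directions below belong to libraries, not to a measured excess of MYC. Of 6 epithelial markers, 5 had a line, with summed levels of 2892 to 5453 CPM. The largest part was KRT5, at 1757 CPM in vector, 1614 in GFP, 4654 in miR-105 and 4138 in MYC. KRT5, KRT18 and EPCAM were higher in miR-105 and MYC than in both controls, and KRT14 and CDH1 were lower. Fibroblast markers summed to 27.4 (miR-105) to 158 CPM (MYC), with DCN, the highest, at 16.0 and 141 CPM in those libraries and COL3A1 at 0 reads in all libraries. Leukocyte markers summed to 3.61 to 10.5 CPM, and melanocyte markers to 0.627 to 4.33 CPM, with TYR at 0 reads. Endothelial markers summed to 3.61 (miR-105) to 92.1 CPM (MYC), with KDR at 1.73 and 88.9 CPM there. PECAM1 was lower in MYC (2.46 CPM) than in vector (12.8) and GFP (15.9), and CDH5 and VWF had at most 6 reads per library. In such bulk samples fewer cells of a type and less RNA per cell cannot be told apart.

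Desmosome transcripts were read in all 4 libraries, and the members did not move together in 1 direction in miR-105 or MYC. The 10 genes together held 3826 CPM in vector, 5062 in GFP, 3313 in miR-105 and 4538 in MYC. Single members differed: DSC3, PKP2 and PKP1 were higher and DSC2 lower in the library labelled MYC, while DSG3, JUP and PERP were lower in the library labelled miR-105. A difference is counted below where log2(CPM + 0.5) lay at least 2-fold, or at least 1.5-fold, from the vector library and from the GFP library in the same direction. This was applied to the 12484 genes whose mean level reached 1 CPM. All 10 members passed that filter, but PKP1 passed it only through its level in the library labelled MYC, so its higher count there follows in part from the filter.

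**Figure D1:**
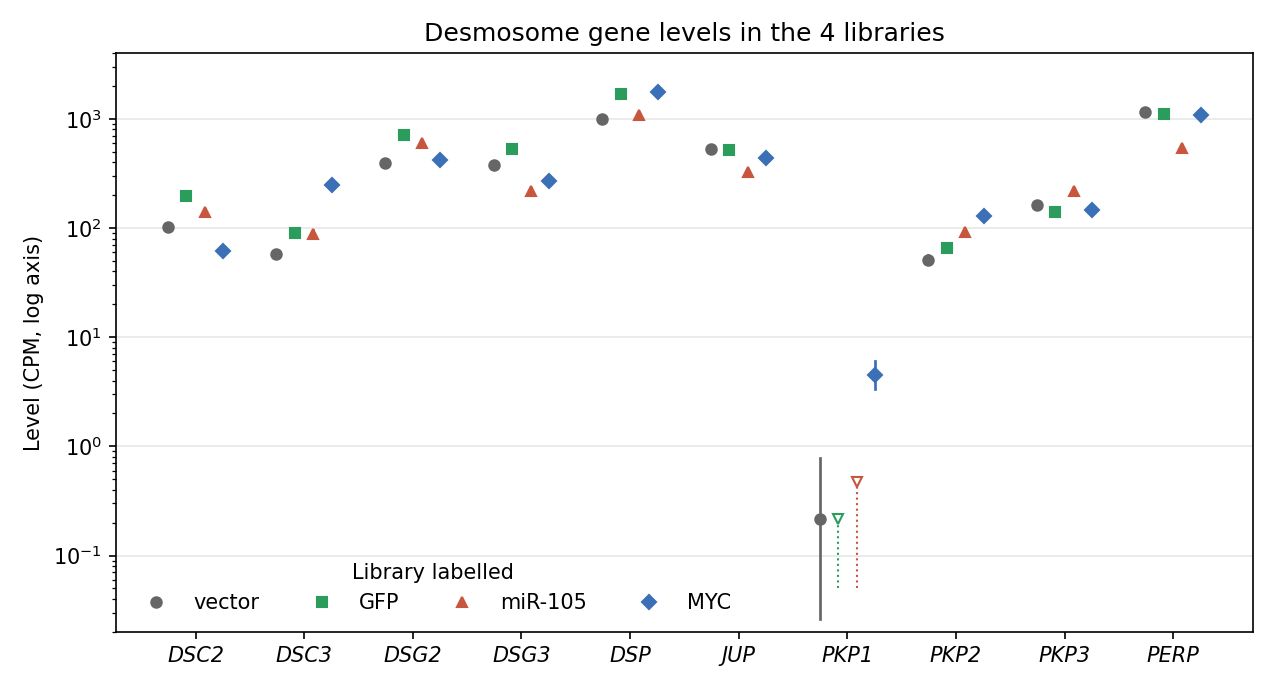
Levels of the 10 desmosome genes in CPM (log axis) in the libraries labelled vector, GFP, miR-105 and MYC, 1 library each, with exact Poisson 95% intervals that are often smaller than the points; open triangles stand at the level of 3 reads where no read was seen. DSP lies between 1000 and 1739 CPM and PERP between 542 and 1151 CPM, and PKP1 reaches 4.55 CPM only in the library labelled MYC.

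Per kilobase of merged exons, PERP was the most abundant member in every library and PKP1 the least, and the same held per kilobase of coding sequence. PERP stood at 268 CPM per kb in vector, 259 in GFP, 126 in miR-105 and 254 in MYC. In the vector library JUP (143 CPM per kb) and DSP (102 CPM per kb) followed, then DSG3 (67.8), DSG2 (64.2) and PKP3 (57.6), with PKP2 (11.5), DSC2 (8.23) and DSC3 (8.15) far below. In the library labelled MYC DSC3 was at 34.8 and DSC2 at 4.95 CPM per kb of merged exons. Per kilobase of coding sequence, DSC2 was at 38.0 and DSC3 at 21.4 in vector, and DSC2 at 22.9 and DSC3 at 91.3 in MYC. These lengths come from GENCODE 29 and not from the annotation behind the deposited table, and only 2703 of the 12495 merged exon bases of DSC2 are coding, so orders among close neighbours are not firm.

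The desmocollins exchanged places in the library labelled MYC. DSC3 stood at 57.5 CPM in vector, 90.3 in GFP, 88.0 in miR-105 and 245 in MYC. The level in MYC lay above the other 3, which spanned 1.57-fold among themselves. DSC3 was 4.27-fold (3.89 to 4.69) above vector and 2.72-fold (2.54 to 2.91) above GFP there. DSC2 stood at 103 CPM in vector, 197 in GFP, 140 in miR-105 and 61.9 in MYC. Here MYC was the lowest library, but the controls were themselves 1.92-fold (1.78 to 2.06) apart. DSC2 was 1.66-fold (1.5 to 1.84) below vector and 3.18-fold (2.92 to 3.47) below GFP in that library.

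The ratio of DSC3 to DSC2 reads needs no scaling between libraries. It was 0.559 (0.502 to 0.623) in vector, 0.458 (0.428 to 0.490) in GFP, 0.629 (0.565 to 0.700) in miR-105 and 3.96 (3.64 to 4.33) in MYC. DSC3 thus made up 79.9% of desmocollin reads of this pair in the library labelled MYC and 31.4% to 38.6% in the other libraries. DSC1, the desmocollin of upper epidermal layers, had between 1 and 4 reads per library.

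The desmogleins differed in another library. DSG3 stood at 374 CPM in vector, 526 in GFP, 219 in miR-105 and 271 in MYC, so that both construct libraries lay below both controls. In miR-105 it was 1.71-fold (1.61 to 1.82) below vector and 2.40-fold (2.27 to 2.55) below GFP. In MYC it was 1.38-fold (1.31 to 1.45) and 1.94-fold (1.86 to 2.02) below them. DSG2 stood at 397 CPM in vector, 710 in GFP, 599 in miR-105 and 415 in MYC. Its levels in miR-105 and MYC fell between those of the controls, which were 1.79-fold apart.

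The ratio of DSG3 to DSG2 reads was 0.943 (0.900 to 0.988) in vector, 0.740 (0.718 to 0.763) in GFP, 0.365 (0.343 to 0.389) in miR-105 and 0.653 (0.623 to 0.685) in MYC. It was lowest in the library labelled miR-105, where DSG3 made up 26.8% of the reads of this pair against 48.5% and 42.5% in the controls. DSG1, the desmoglein of the upper epidermis, had no read in any library, where 3 reads would be 0.217 CPM in GFP, the deepest, and 0.471 CPM in miR-105, the shallowest. DSG4 had 1 read, in vector. An antisense gene, DSG2-AS1, shares 171 exon bases with DSG2 (2.76% of its exons), and because strand-specific counting is not stated, reads there cannot be told apart.

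**Figure D2:**
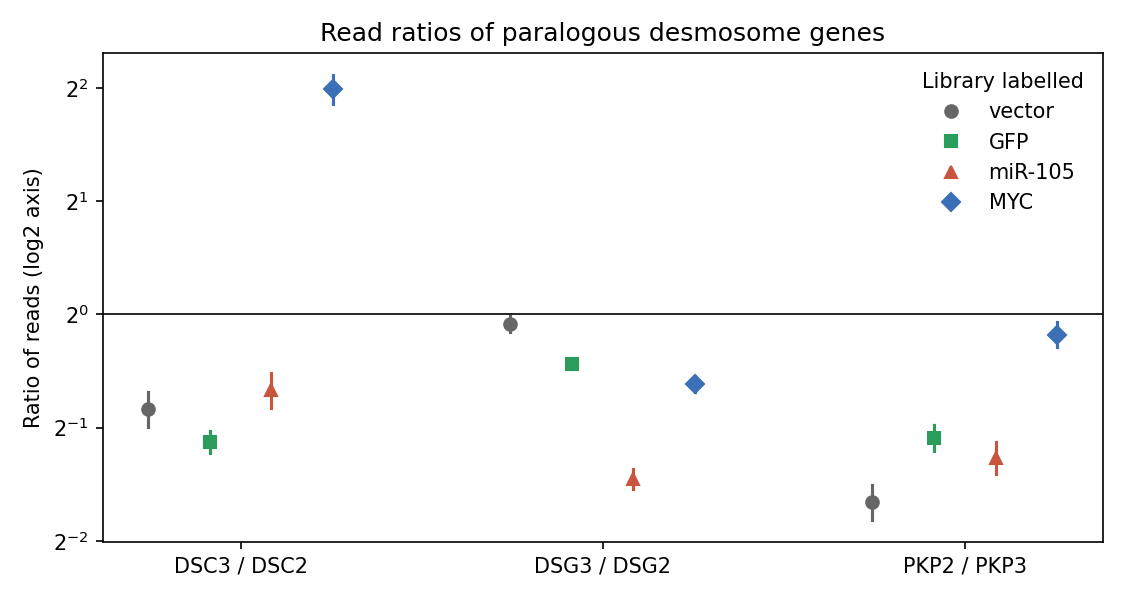
Ratio of reads of DSC3 to DSC2, DSG3 to DSG2 and PKP2 to PKP3 within each library (log2 axis), with exact binomial 95% intervals for counting error; the line marks equal reads. DSC3 to DSC2 lies between 0.458 and 0.629 in 3 libraries and at 3.96 in the library labelled MYC, and DSG3 to DSG2 is lowest, 0.365, in the library labelled miR-105.

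Among the plakophilins, which bind the cadherin tails and draw in desmoplakin, PKP2 was lowest in vector and highest in MYC. It stood at 51.1 CPM in vector, 65.4 in GFP, 91.1 in miR-105 and 128 in MYC. Both construct libraries lay above both controls. In MYC it was 2.5-fold (2.25 to 2.79) above vector and 1.96-fold (1.80 to 2.13) above GFP, and in miR-105 1.78-fold (1.58 to 2.02) and 1.39-fold (1.25 to 1.55). With library totals alone as the scale, PKP2 passed 2-fold against both controls in MYC, as it did with median-of-ratios factors and with the deposited values.

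PKP3 varied least of the plakophilins. It stood at 162 CPM in vector, 140 in GFP, 219 in miR-105 and 145 in MYC. The level in miR-105 was above the other 3, by 1.36-fold (1.26 to 1.46) over vector and 1.57-fold (1.46 to 1.68) over GFP. PKP2 reads per PKP3 read were 0.316 (0.285 to 0.351) in vector, 0.468 in GFP, 0.415 in miR-105 and 0.884 (0.821 to 0.952) in MYC.

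PKP1 had 2 reads in vector, 0 in GFP, 0 in miR-105 and 48 in MYC. It was therefore near its detection limit in 3 libraries and at 4.55 CPM (3.36 to 6.03) in the library labelled MYC. The ratio to vector was 21.0-fold, with a counting interval of 5.52 to 179, and the level was at least 21.0-fold above GFP, taking 3 reads as the GFP floor. PKP1 reads there were still only 0.0355 per PKP2 read.

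Plakoglobin, which also serves adherens junctions, was lower in the library labelled miR-105. JUP stood at 530.1 CPM in vector, 520 in GFP, 329 in miR-105 and 438 in MYC. The controls differed by 1.02-fold (0.983 to 1.06), while miR-105 lay 1.61-fold (1.53 to 1.70) and 1.58-fold (1.51 to 1.66) below them and MYC 1.21-fold (1.16 to 1.26) and 1.19-fold (1.14 to 1.23) below.

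PERP showed the clearest separation of the library labelled miR-105 from the other 3. It stood at 1151 CPM in vector, 1113 in GFP, 542 in miR-105 and 1089 in MYC. The other 3 libraries lay within 1.06-fold of each other. In miR-105 it was 2.12-fold (2.04 to 2.21) below vector and 2.05-fold (1.98 to 2.13) below GFP. This is close to the 2-fold threshold, which PERP no longer reached in the deposited values without further scaling. In MYC its mean log2 difference from both controls was −0.06, which turned to 0.05 when only library totals set the scale and to 0.0020 in the unscaled deposited values.

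Desmoplakin, the plakin that anchors keratin filaments, separated the libraries differently. DSP stood at 1000 CPM in vector, 1700 in GFP, 1086 in miR-105 and 1739 in MYC. The vector and miR-105 libraries were low and the GFP and MYC libraries high. MYC was thus 1.74-fold (1.70 to 1.78) above vector but only 1.02-fold (1.00 to 1.04) above GFP, and no difference of DSP was shared by both controls at 1.5-fold.

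**Figure D3:**
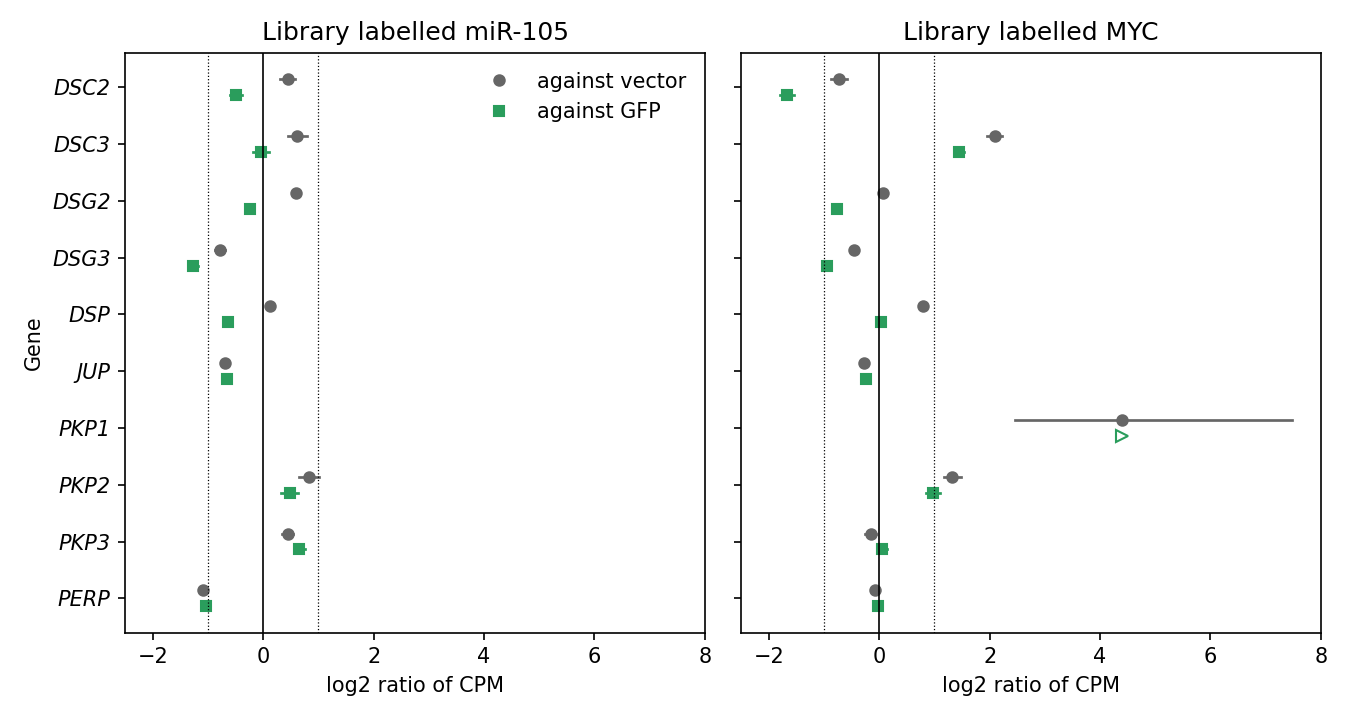
log2 ratio of CPM of each desmosome gene in the library labelled miR-105 (left) and MYC (right) against vector (circles) and GFP (squares), with exact 95% intervals for counting error; dotted lines mark 2-fold, the open triangle is a lower bound, and PKP1 has no point at left because it had 0 reads in miR-105. DSC3 and PKP1 are the genes past 2-fold above both controls in MYC, and PERP is the gene past 2-fold below both in miR-105.

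Counted over the list, the library labelled miR-105 had 0 of 10 members at least 2-fold higher, against 14.7% of all genes, and 1 lower (PERP), against 16.6%. At 1.5-fold it had 0 higher, against 24%, and 3 lower (DSG3, JUP and PERP), against 24.7%. The library labelled MYC had 2 members at least 2-fold higher (DSC3 and PKP1), against 9.03% of all genes, and 0 lower, against 10.4%. At 1.5-fold it had 3 higher (with PKP2), against 16.6%, and 1 lower (DSC2), against 17.2%. With 10 members, 1 gene moves a share by 10%, and nothing is read from these counts about the set. Leaving out PKP1, which the filter admitted through MYC alone, left 1 higher in MYC. The median log2 difference of the members was −0.14 in miR-105 and −0.05 in MYC, where all genes had medians of 0.01 and 0.04. Against vector alone the median in miR-105 turned to 0.28 and against GFP alone it was −0.37, and without PKP1 it was −0.02. In MYC the median became 0.05 with library totals alone, 0.0029 with deposited values and 0.0004 against GFP alone. Both sets of differences use the same pair of controls, so their values are given side by side and not set against each other.

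Compared directly, the library labelled miR-105 was at least 2-fold above that labelled MYC for DSC2, where 19% of all genes were higher. It was at least 2-fold below for DSC3, PKP1 and PERP, where 19.8% were lower. PKP1 passed the filter only through its level in MYC, so its count as lower here follows in part from the filter. Without PKP1, 2 members were lower. DSC2 was 2.26-fold (2.04 to 2.5) higher in miR-105. DSC3 was 2.79-fold (2.55 to 3.06) lower, PERP 2.01-fold (1.93 to 2.09) lower, and PKP1 at least 9.67-fold lower. The difference of PERP sits at the threshold, and with library totals alone DSC2 was no longer past 2-fold.

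The controls set a limit on these readings. No member was 2-fold higher or lower in GFP than in vector, where 3.06% of all genes were higher and 1.03% lower. At 1.5-fold, 4 members were higher in GFP (DSC2, DSC3, DSG2 and DSP), against 13% of all genes, and 0 lower, against 6.99%. These 4 have the longest merged exons of the 10. Over 12135 genes passing the filter with a GENCODE length, the median log2 difference of GFP from vector was −0.32 in the 20% of genes with the shortest merged exons (up to 2123 bases) and 0.48 in the 20% with the longest (from 6367 bases). DSC2, DSC3 and DSP fall in that longest class, with differences of 0.93, 0.65 and 0.77, and DSG2, with 6190 exon bases, differed by 0.84. PKP3, the member with the shortest exons (2809 bases), differed by −0.21, beside a median of −0.15 in its class. The part of transcript length in the differences between the controls was not tested. Against the mean of both controls the medians of the 5 classes ran from 0.0009 to 0.04 in miR-105 and from 0.0025 to 0.10 in MYC. A trend against vector and an opposite trend against GFP can cancel in that mean. The differences from each control singly, on which the counts rest, were not examined by length.

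**Figure D4:**
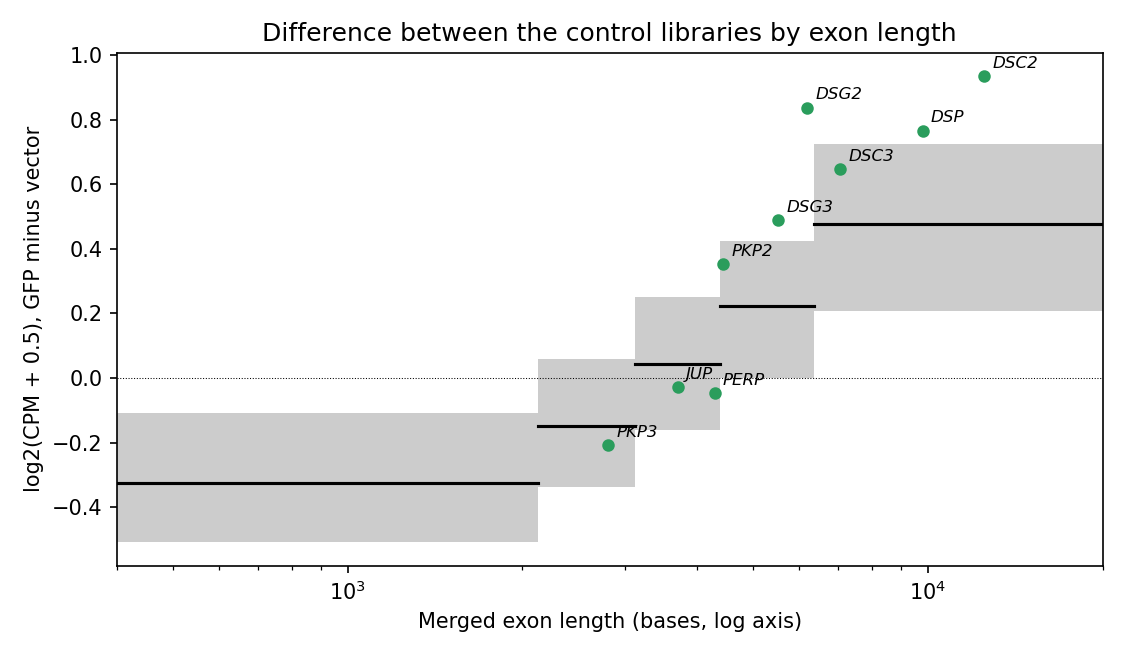
Difference of log2(CPM + 0.5) between the GFP and vector libraries against merged exon length (log axis); black lines are medians and grey boxes the middle 50% of all genes in each of 5 length classes, the outer classes drawn only within the axis, and green points are desmosome genes without PKP1, which had 2 and 0 reads. DSC2, DSC3, DSG2 and DSP lie at 0.65 to 0.93, and the gene medians go from −0.32 to 0.48.

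Other genes of desmosomes and of the plakin family did not share 1 direction. Of 7 listed (DSC1, DSG1, DSG4, PKP4, CDSN, PPL and EVPL), 4 passed the filter. In miR-105, 0 were 2-fold higher and 1 lower, and in MYC 0 were higher and 3 lower (CDSN, PPL and EVPL). Over all genes, 14.7% were higher and 16.6% lower in miR-105, and 9.03% and 10.4% in MYC. Periplakin (PPL), which links desmosomes and keratin to the cornified envelope, stood at 861 CPM in vector, 966 in GFP, 56.9 in miR-105 and 380 in MYC. That was 15.1-fold (13.6 to 16.9) and 17-fold (15.3 to 18.9) below the controls in miR-105, a far wider gap than that of its relative DSP. Envoplakin (EVPL), its partner, stood at 154, 158, 97.7 and 69.1 CPM in the same order and was 2.23-fold and 2.29-fold below the controls in MYC. PKP4, a relative of the plakophilins, went the other way in miR-105, at 2.12-fold (1.89 to 2.38) above vector and 1.83-fold (1.66 to 2.02) above GFP.

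Keratins, the filaments that the plaque holds, had list medians of −1.28 in miR-105 and −0.93 in MYC, beside medians near 0 over all genes. Of 11 measured, 3 were 2-fold higher (KRT5, KRT6A and KRT6B) and 6 lower in miR-105, and 1 was higher (KRT5) and 5 lower in MYC. The shares over all genes were 14.7% higher and 16.6% lower in miR-105, and 9.03% and 10.4% in MYC. KRT17 was 9.04-fold and 6.70-fold below the controls in miR-105 and 3.90-fold and 2.89-fold below in MYC. KRT80, a keratin known to lie near desmosomes, was 31.5-fold (21.5 to 48.1) and 63.7-fold (43.7 to 96.9) below them in MYC.

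Genes of the neighbouring junctions were counted at 2-fold in the same way. Over all genes, 14.7% were higher and 16.6% lower in miR-105, and 9.03% and 10.4% in MYC. With lists this short, nothing is read from the counts about the junctions. Of 11 adherens junction genes measured, 2 were higher (CDH2 and NECTIN1) and 1 lower (NECTIN4) in miR-105, and the same 2 were higher and 3 lower (CDH1, NECTIN2 and NECTIN4) in MYC. CDH1, which encodes E-cadherin, stood at 549 CPM in vector, 768 in GFP, 368 in miR-105 and 183 in MYC. The nectin NECTIN4 was 28.4-fold (16.1 to 55.3) below vector in miR-105. Of 9 hemidesmosome genes, 1 was higher (ITGA6) and 2 lower (ITGB4 and LAMB3) in miR-105. The integrin subunit ITGA6 was 8.76-fold and 5.40-fold above the controls in miR-105, and the plakin PLEC 3.72-fold and 4.38-fold below them in MYC.

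Transcription factors known to act on desmosomal genes had list medians of −0.55 in miR-105 and −0.41 in MYC. Of 15 that passed the filter, 0 were 2-fold higher and 4 lower in miR-105, and 2 were higher and 6 lower in MYC. The shares over all genes were 14.7% higher and 16.6% lower in miR-105, and 9.03% and 10.4% in MYC. TP63, the regulator of basal epithelial identity, stood at 7.14 CPM in vector, 14.4 in GFP, 6.12 in miR-105 and 77.2 in MYC. GRHL1, a grainyhead factor, was 10.4-fold and 18.9-fold below the controls in MYC, and its relative GRHL2 had 0 reads there, at least 398-fold below vector with 3 reads as the floor. OVOL2, an epithelial repressor, was 11.5-fold and 8.73-fold lower there. Of the SNAI and ZEB repressors, SNAI2 stood at 150 CPM in vector, 118 in GFP, 140.1 in miR-105 and 45.8 in MYC. The other 3 did not pass 2-fold: in the same order, ZEB1 stood at 4.86, 6.50, 5.33 and 7.02 CPM, ZEB2 at 14.3, 13.4, 9.57 and 16.0 CPM, and SNAI1 at 3.35, 3.61, 2.35 and 2.65 CPM. Whether any of these factors bears on the desmosome genes was not tested.

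**Figure D5:**
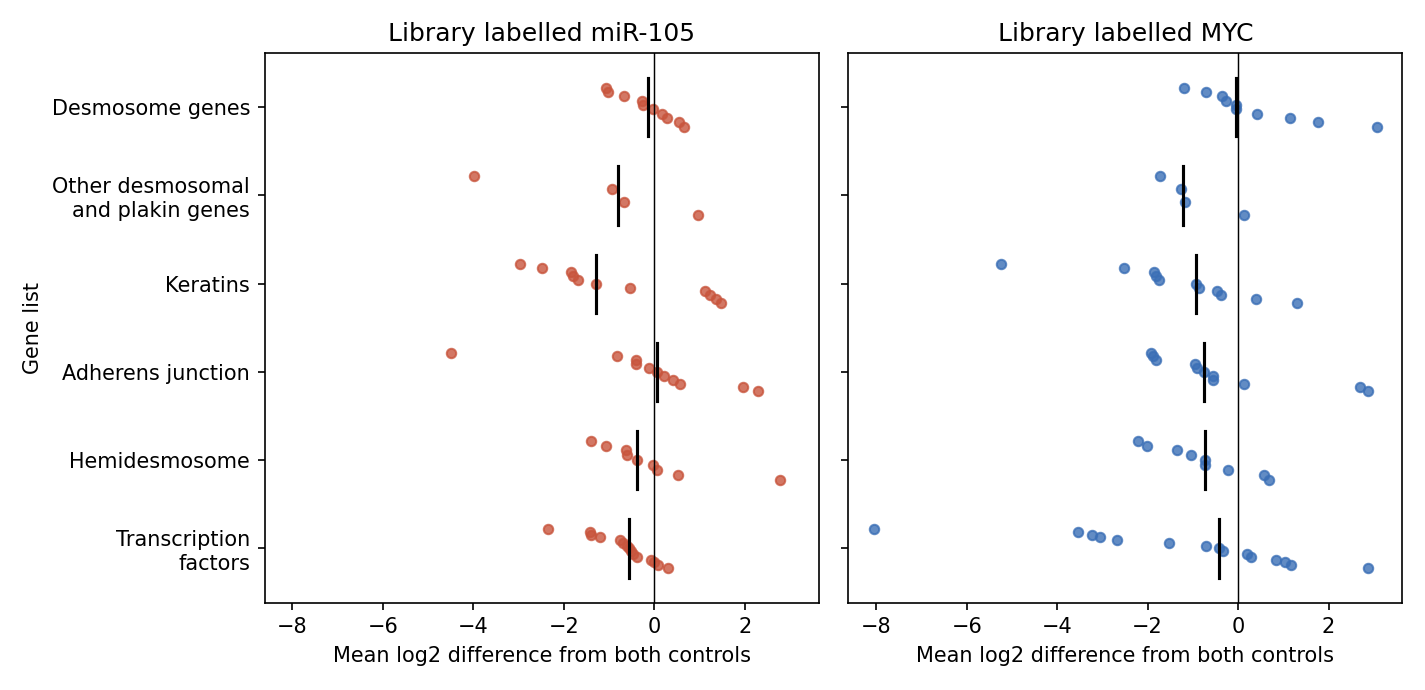
Mean difference of log2(CPM + 0.5) from both controls for each gene whose mean reached 1 CPM (points) in 6 gene lists, with list medians (black bars), in the libraries labelled miR-105 (left) and MYC (right); the lowest point at right is GRHL2, whose value rests on the 0.5 CPM added. Desmosome genes spread around medians of −0.14 and −0.05, and PPL is the lowest of the other desmosomal and plakin genes at left.

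The genes nearest to each member in pattern were sought among the 9833 genes whose mean reached 10 CPM, by the root mean square difference of centred log2 values over the 4 libraries. For DSC3 the nearest was ELK4 (0.06), for DSC2 KIAA1549 (0.04), for DSG3 BTBD9 (0.06), for PKP2 CYP4V2 (0.03) and for PERP GNL1 (0.03). For PKP1 the nearest, IFITM1, was at 0.24. Within the list JUP and PERP were nearest to each other (0.21), as were DSC2 and DSG2 (0.35), and DSC3 and PKP2 (0.37). With 4 libraries these are descriptions of likeness only.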

How the data were processed

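Poly(A) RNA from 4 MCF10A lines was sequenced, 1 library per construct. For the steps run by the authors, the submitters' processing notes list hg19, TopHat2 and edgeR, without versions or roles. For the read counter, annotation and strandedness, nothing is stated in those sources. The values deposited by the authors are a depth-adjusted signal in the form of edgeR pseudo-counts, judged from the values, where raw counts had been assumed when the comparisons were planned. Inverting that adjustment at a common dispersion of 0.0553 gave whole reads for 100% of the 18859 lines in every library (largest relative residual 1.01e-07, tolerance 1e-05), and 19 repeated lines were dropped. Reads were scaled by TMM, recomputed in Python 3.11.15 with numpy 2.4.6 and scipy 1.17.1 and tested on simulated data. The factors were 1.0122, 0.9871, 0.9295 and 1.0768 for vector, GFP, miR-105 and MYC, so that 1 read was worth 0.0722 to 0.157 CPM. Ratios carry exact conditional binomial intervals and levels exact Poisson intervals. They cover counting error only, since reads lacking molecular identifiers need not be independent molecules.

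The members and gene lists were chosen with earlier results of these data known. All members were named, and list genes if they reached 10 CPM in a library and were 2-fold from both controls in a library, at most 4 per list and largest first. A few genes outside that rule (CDSN, CDH1, SNAI1, SNAI2, ZEB1, ZEB2, PKP4, LAMB3 and keratins counted in a list) were named after their values were seen. Some results of the lists are not reported here. Alternatives were other scalings, thresholds, filters, pseudocounts and each control alone. Coordinates, exon lengths and untranslated regions are from GENCODE 29 (GRCh38), and sequences from RefSeq tables, which matched 8 of the 10 members for promoters.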

Additional observations from a re-analysis of the deposited data

How the results depend on the processing

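The count of desmosome genes at least 2-fold from both controls in miR-105 was 1, and became 0 with the deposited values unscaled, 3 at 1.5-fold and 2 with GFP alone as control. In MYC the count was 2, and became 4 at 1.5-fold, 1 with a mean of at least 5 CPM and 1 without PKP1 (added after the values were seen). It was 3 with library totals, with median-of-ratios factors, with deposited values and with vector alone, and also 3 with GFP alone (2 higher and 1 lower). Between GFP and vector it was 0, and 4 at 1.5-fold. The median log2 difference in miR-105, −0.142, became −0.196 with library totals, −0.158 with median-of-ratios factors, −0.137 with deposited values, 0.279 against vector alone, −0.369 against GFP alone, −0.144 and −0.050 with pseudocounts of 0.1 and 2 CPM, and −0.025 without PKP1. In MYC it turned from −0.055 to 0.053 with library totals, to 0.0029 with deposited values and to 0.0004 against GFP alone. Against vector alone it was −0.0074. The mean difference of PERP in MYC, −0.0557, turned to 0.0517 with library totals and 0.0020 with deposited values, and that of PKP3, −0.0539, to 0.0532 and 0.0038. These 4 were the sign changes among 60 member differences under the 3 other scalings, of which 45 moved by less than their counting error. The DSC3 to DSC2 and DSG3 to DSG2 ratios moved by less than theirs. The causes were not tested. Library totals alone shifted the all-gene median in MYC from 0.04 to 0.14 and that in miR-105 from 0.01 to −0.09. No paired analysis was possible because each construct had 1 library and the labels number none. Depth limits PKP1, DSC1, DSG1 and DSG4, which had at most 4 reads in every library except PKP1 in MYC.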

Other observations

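Other pairs of related genes also changed proportion between libraries, read here as ratios within a library. DSG3 reads per DSC3 read, the basal desmosomal cadherins, were 6.51 (5.94 to 7.15) in vector, 5.82 (5.48 to 6.19) in GFP, 2.49 (2.25 to 2.75) in miR-105 and 1.11 (1.05 to 1.17) in MYC. DSP reads per JUP read were 1.89 (1.82 to 1.95) in vector and 3.27, 3.30 and 3.97 in GFP, miR-105 and MYC, so that the controls were as far apart as vector and miR-105. P-cadherin (CDH3) reads per E-cadherin (CDH1) read were 0.370 and 0.322 in the controls, 0.911 (0.859 to 0.966) in miR-105 and 1.34 (1.27 to 1.43) in MYC. Reads of KRT14 per read of its partner KRT5 were 0.291 and 0.240 in the controls, 0.0266 in miR-105 and 0.0564 in MYC. These ratios were chosen after the values had been seen, and exon lengths differ between the genes of a pair.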
